A study of Mus musculus with 8 samples.

Results

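The genes described here are 7 genes of the B- and T-lymphocyte lineages (Ighm, Cd79a, Cd79b, Blnk, Pax5, Lck and Cd3e) and the tyrosine kinase gene Abl1, measured by RNA-seq in RAW264.7 cells. They were chosen by name, and the 8 make up a small set within the 55335 genes of the deposited table, from which all 8 were matched by Ensembl identifier. RAW264.7 is a mouse macrophage-like line from a tumour raised with Abelson murine leukaemia virus. Culture lasted 3 days with TABS, the Trio-Active bone scaffold (4 libraries), or with HA/Mg, hydroxyapatite doped with Mg2+ (4 libraries), and both groups were replicates 5 to 8 of the same line. No cells without a scaffold were analysed here, so each change below sets TABS against HA/Mg. In the library names H stands for TABS and L for HA/Mg, per the sample descriptions. The labels do not explain these letters, and were they swapped, each direction given here would turn round.

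A B cell builds its antigen receptor from an immunoglobulin heavy chain and a light chain, each assembled by joining V, J and, for the heavy chain, D segments in front of a constant region. Ighm encodes the constant region of the mu heavy chain, Cd79a and Cd79b encode the signalling chains that carry the receptor to the surface, and Blnk encodes the adaptor that links the kinase Syk to downstream enzymes. Pax5 encodes the transcription factor that commits cells to the B lineage and is required for the complete joining of heavy-chain V segments. Lck encodes the Src-family kinase that phosphorylates the T-cell receptor, of which Cd3e encodes a signalling chain. Abelson virus carries a rearranged copy of part of Abl1 and typically transforms B-cell precursors in mice. A value for Abl1 taken over the whole gene cannot tell viral from cellular transcripts.

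The heavy-chain locus is shown first, because Ighm was the most abundant of the 8 genes and its D and J neighbours, but almost no V segment, also had signal. The segments below are the annotated D segment nearest to the J cluster, which the annotation calls Ighd4-1, and the 4 J segments in front of Ighm, from GENCODE M21 on GRCm38, all on the minus strand of chromosome 12. Capitals mark the codons for tryptophan and glycine that the J segments share, spelled TGGGGN, which was found once in each J segment and not in the D segment. Ighd4-1 (chr12:113430528-113430538) has 11 bases and lies 7797 bases from Ighm, and the J segments have 48 to 54 bases and follow at chr12:113429781-113429833 (Ighj1), chr12:113429468-113429515 (Ighj2), chr12:113429085-113429132 (Ighj3) and chr12:113428514-113428567 (Ighj4).
Ighd4-1: ctaactgggac
Ighj1: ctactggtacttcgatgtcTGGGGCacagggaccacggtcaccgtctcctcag
Ighj2: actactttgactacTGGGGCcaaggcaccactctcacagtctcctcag
Ighj3: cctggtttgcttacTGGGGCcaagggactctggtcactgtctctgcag
Ighj4: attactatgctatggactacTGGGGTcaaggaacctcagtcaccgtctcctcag

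Lck has an established pair of start regions, a proximal promoter used in thymocytes and a distal promoter used in mature T cells. Both are shown because Lck had signal in all 8 libraries, while Cd3e, the other T-lineage gene of the set, was listed at 0. The sequences are from RefSeq on GRCm38.p6, minus strand, cut to bases outside annotated exons, at chr4:129558392-129558622 (proximal, 231 bases) and chr4:129573642-129573891 (distal, 250 bases). Capitals mark CAGGAAGT, an ETS-type motif chosen after the sequences had been read and searched on both strands. The letters do not say which factor, if any, binds.
Lck proximal: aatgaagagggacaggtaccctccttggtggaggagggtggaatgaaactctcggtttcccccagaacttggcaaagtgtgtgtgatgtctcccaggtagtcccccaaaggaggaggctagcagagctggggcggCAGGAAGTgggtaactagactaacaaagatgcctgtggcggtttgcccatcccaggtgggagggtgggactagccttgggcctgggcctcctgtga
Lck distal: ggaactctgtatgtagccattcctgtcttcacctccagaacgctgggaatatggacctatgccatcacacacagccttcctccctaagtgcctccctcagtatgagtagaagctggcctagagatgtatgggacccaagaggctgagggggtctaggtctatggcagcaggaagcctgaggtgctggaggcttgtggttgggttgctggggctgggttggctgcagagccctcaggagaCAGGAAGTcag

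Levels are in FPKM, in which fragment numbers are scaled by transcript length and by the depth of the library. Between 9908 and 10280 genes reached 1 FPKM in a library. Depths estimated from the spacing of the lowest values, searched only within a preset range, were 19800000 to 23600000 fragments. On the first principal component of the tested genes, which held 40.2% of the variance, the scores were 5.72 to 16.5 for TABS and -16.4 to -12.7 for 3 of the HA/Mg libraries, while HA/Mg replicate 6 scored 2.62, nearer to TABS. The second component (18.3%) split the TABS libraries. TABS replicates 5 and 6 scored 11.6 and 11.2, TABS replicates 7 and 8 scored -8.38 and -1.7, and HA/Mg libraries scored -11.1 to 2.09. Differences were tested with limma on log2(FPKM + 1) over the 10161 genes that reached 1 FPKM in 4 or more libraries, and a gene counted as changed at a Benjamini-Hochberg adjusted p under 0.05. Of the tested genes 1842 changed, or 18.1%, with 515 higher (5.07%) and 1327 lower (13.1%) with TABS. Higher genes were 28.0% of the changed genes as deposited, 13.9% with equal library sums, 43.4% with median-of-ratios scaling and 40.0% with quantile normalization. Without HA/Mg replicate 5 the changed genes were 429, and without HA/Mg replicate 6 they were 3320.

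The macrophage label of the line held. Of 16 macrophage genes 12 passed the filter, led by Lyz2 (lysozyme), Cd68 (a lysosomal glycoprotein) and Cd14 (a co-receptor for bacterial lipopolysaccharide). Mrc1, Mertk and Marco stayed under 1 FPKM in each library and Maf was listed at 0 in all 8. Of 19 T-cell identity genes none reached 1 FPKM in any library and 9 were listed at 0 in all 8, namely Cd3g, Cd4, Cd8a, Cd8b1, Trac, Trbc1, Trbc2, Cd2 and Thy1. The summed level of that list was 1.15 to 1.74 FPKM in TABS libraries and 1.01 to 1.28 FPKM in HA/Mg libraries. Of 9 NK-cell genes 7 were listed at 0, and the 10 stromal and osteoblast genes summed to at most 0.422 FPKM in TABS libraries and 0.303 FPKM in HA/Mg libraries, with Alpl, Bglap and Ibsp at 0.

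In mean level over the 8 libraries the order was Ighm, Blnk, Abl1, Lck, Cd79b, Cd79a, Pax5 and Cd3e. Ighm stood above Blnk in 8 of 8 libraries, and Cd79b stood above Cd79a in 8 of 8. The neighbours between Blnk and Cd79b were not apart beyond their spread, with Blnk above Abl1 in 6 of 8 libraries, Abl1 above Lck in 4 of 8 and Lck above Cd79b in 4 of 8. The filter was passed by 5 genes, which were tested, and Cd79a, Pax5 and Cd3e did not pass it. Of the 5 tested, 1 changed, which is to be read against the 18.1% of all tested genes that changed. In 3 of the 5 (Cd79b, Blnk and Lck) the groups did not overlap, all higher with TABS, against 23.1% of all tested genes with groups that did not overlap in either direction and 8.05% in the higher direction.

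**Figure D1:**
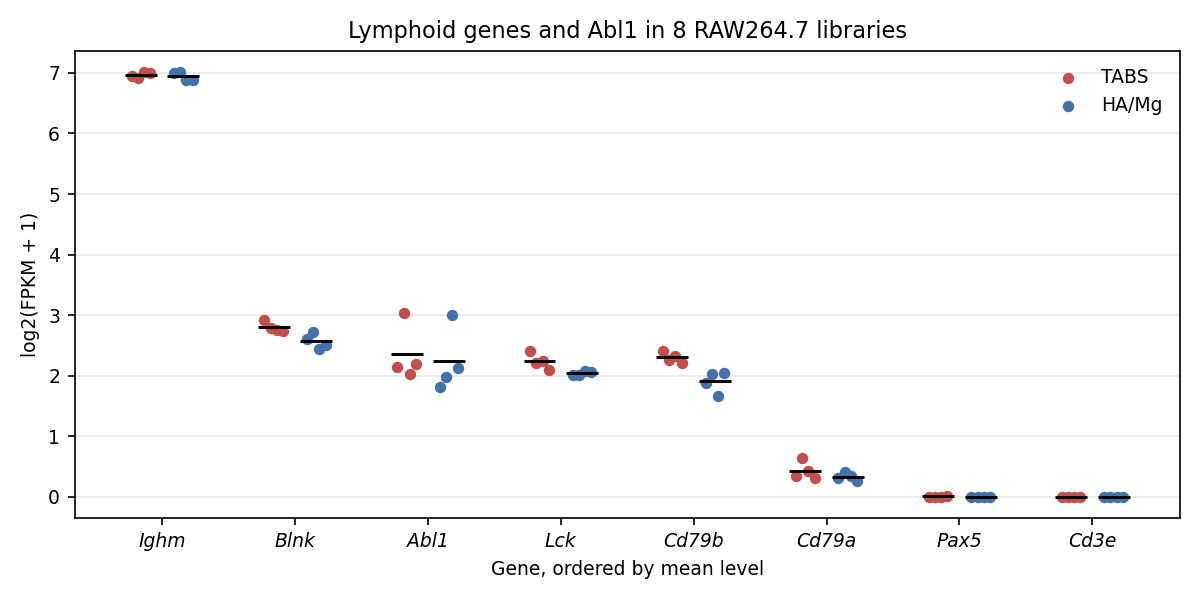
Level of the 8 genes in each library, as log2(FPKM + 1), for TABS (red) and HA/Mg (blue); each point is 1 library and each bar a group mean. Ighm stands far above the others in all 8 libraries, Cd79a stays under 1 FPKM, and Abl1 has 1 high library in each group.

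Ighm (chr12:113418558-113422730, minus strand, annotated as an immunoglobulin constant gene) had 123, 120, 128 and 127 FPKM in TABS libraries, against 127, 128, 118 and 117 FPKM in HA/Mg libraries. All 8 libraries were alike and the groups overlapped. At a mean of 125 ± 3.52 FPKM with TABS and 122 ± 5.90 FPKM with HA/Mg (SD, n = 4 each), Ighm was at the 98.5th percentile of levels among protein-coding genes. The log2 change was 0.029 ± 0.045 (standard error of limma's fit, adjusted p = 0.669), and its sign turned with equal library sums (-0.021), quantile normalization (-0.056) and removal of length and GC trends (-0.046).

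Upstream of Ighm, Ighj1 had 12.1, 8.40, 10.8 and 10.4 FPKM in TABS libraries, against 10.2, 11.1, 8.99 and 10.7 FPKM in HA/Mg libraries. Ighj1 was the highest of the J segments shown above, and its groups overlapped. Ighj4 averaged 1.70 ± 0.512 FPKM with TABS and 2.17 ± 0.378 FPKM with HA/Mg, and Ighj2 and Ighj3 averaged 0.961 and 1.06 FPKM with TABS and 1.30 and 1.14 FPKM with HA/Mg. The D segment Ighd4-1 had 1.46, 2.04, 1.14 and 0.944 FPKM in TABS libraries, against 1.48, 1.99, 1.83 and 1.15 FPKM in HA/Mg libraries. The values of Ighj2 are for its whole annotated gene (chr12:113429468-113429567), which also holds another transcript, partly outside the segment shown above. These segments are shorter than a 150-base read, so their FPKM cannot be set beside those of longer genes, and none of those tested changed (limma, adjusted p of 0.249 to 0.926). Downstream, Ighd (chr12:113406604-113416324), the constant region of the delta heavy chain that is made by alternative processing of the same transcript in mature B cells, averaged 1.21 ± 0.262 FPKM with TABS and 1.53 ± 0.167 FPKM with HA/Mg (adjusted p = 0.171).

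In the values as deposited, signal in the locus did not extend to the annotated V segments. How reads were assigned to these genes is not given, so a value of 0 does not show that no V transcript was present. Of 185 heavy-chain V genes, pseudogenes included, 3 were above 0 in any library, and the highest value was 0.170 FPKM. Among 218 functional V genes of all immunoglobulin loci, 3 were above 0 as well. Of 19 annotated D genes, pseudogenes left out, 1 was above 0, namely Ighd4-1. The annotated light-chain genes were also listed at or near 0. All 166 kappa genes, pseudogenes included, were listed at 0, and 2 of 12 lambda genes were above 0, at no more than 0.0735 FPKM. Of the surrogate light chain genes, whose products pair with the mu chain in precursor B cells, Igll1 and Vpreb2 were listed at 0 in all 8 libraries, and Vpreb1 was at 0.0194 FPKM in TABS replicate 5 and 0.0394 FPKM in TABS replicate 8 and at 0 in the others. Also listed at 0 in all 8 were Rag1 and Rag2, the recombinase that joins the segments, and Jchain, which links IgM into pentamers. All 270 T-cell receptor genes, pseudogenes included, were listed at 0.

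**Figure D2:**
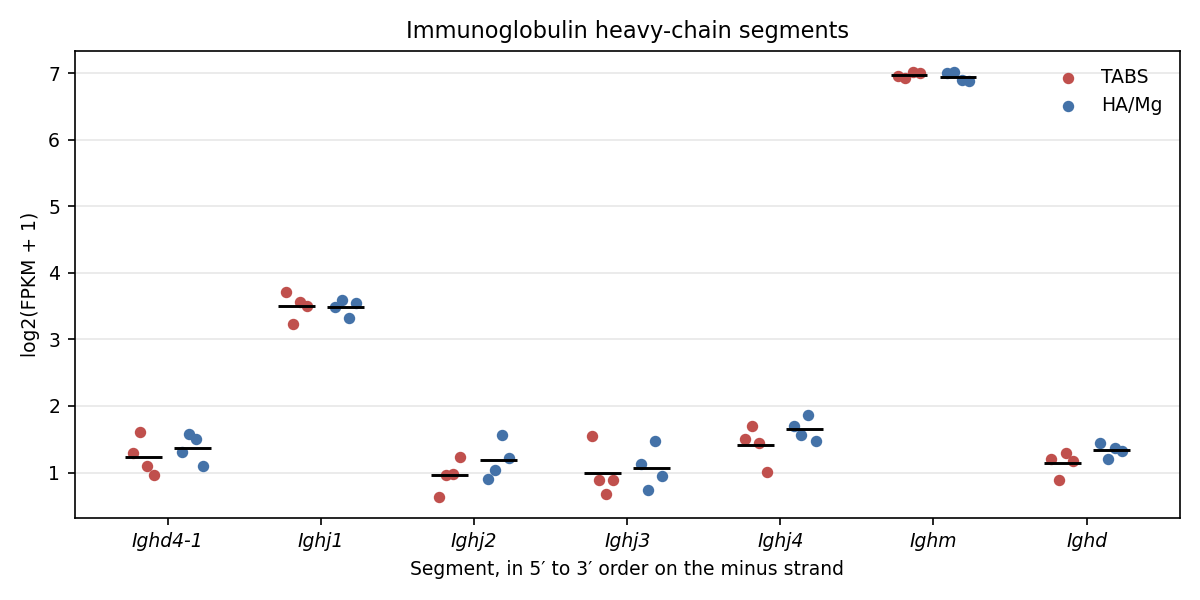
Heavy-chain D, J and constant segments in each library, as log2(FPKM + 1), for TABS (red) and HA/Mg (blue), in their order along the transcript; points are libraries and bars group means. Ighj1 is the highest of the J segments in all 8 libraries, and the groups overlap for each segment. Levels of the short D and J segments cannot be set beside those of Ighm and Ighd.

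Cd79b (chr11:106311341-106314762, minus strand) was the 1 gene of the 8 that changed. It had 4.31, 3.80, 4.01 and 3.64 FPKM in TABS libraries, against 2.68, 3.06, 2.16 and 3.13 FPKM in HA/Mg libraries. Every TABS library was above every HA/Mg library, and HA/Mg replicate 7 was the lowest. The mean was 3.94 ± 0.291 FPKM with TABS and 2.76 ± 0.443 FPKM with HA/Mg (SD, n = 4 each), 1.43-fold higher, with a log2 change of 0.40 ± 0.09 (limma, adjusted p = 0.0222). The call ended without TABS replicate 5 (adjusted p = 0.0593), TABS replicate 7 (0.0522), HA/Mg replicate 5 (0.0687) or HA/Mg replicate 7 (0.0545), with no filter on low values (0.0648), and after removal of each library's length and GC trends (log2 change 0.28, adjusted p = 0.0837). The transcript's GC content was 54.2%, and the part that GC or length plays in the change was not separately tested. In these bulk samples, more cells with the transcript and more transcript per cell cannot be told apart.

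Cd79a (chr7:24897381-24902197, plus strand), the partner of Cd79b, had 0.260, 0.560, 0.334 and 0.243 FPKM in TABS libraries, against 0.237, 0.328, 0.264 and 0.189 FPKM in HA/Mg libraries. TABS replicate 6 was the highest and the groups overlapped. The estimated depth puts these values at 6.51 to 16.2 fragments per library, and Cd79a did not pass the filter for the test. Cd79b exceeded Cd79a in each library, although the 2 chains work as a pair in the receptor.

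Blnk (chr19:40928927-40994535, minus strand) had 6.56, 5.88, 5.72 and 5.68 FPKM in TABS libraries, against 5.07, 5.55, 4.42 and 4.68 FPKM in HA/Mg libraries. The groups did not overlap, and the gap between the lowest TABS library and HA/Mg replicate 6 was small. The mean was 5.96 ± 0.412 FPKM with TABS and 4.93 ± 0.493 FPKM with HA/Mg (SD, n = 4 each), a log2 difference of 0.23 ± 0.07 that did not pass (limma, adjusted p = 0.0572). It passed without HA/Mg replicate 6 (adjusted p = 0.0165), with array weights (0.0136), with median-of-ratios scaling (0.0431), with quantile normalization (0.0382) and after removal of length and GC trends (0.0365). Blnk had a GC content of 45.7%, below that of Cd79b.

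Pax5 (chr4:44524757-44710487, minus strand) was listed at 0 in 7 libraries and at 0.00533 FPKM in TABS replicate 8. Of 18 other B-lineage transcription factor genes, Ebf1, Pou2af1, Bcl11a and Lef1 were listed at 0 in all 8 libraries. Ebf1 works with Pax5 to set up the B-cell programme, and Pou2af1 encodes a B-cell co-activator of octamer-binding factors. The factors of this list with high levels are ones that macrophages also use, or that many cells use. Spi1, which encodes PU.1, averaged 56.5 ± 0.472 FPKM with TABS and 53.0 ± 2.40 FPKM with HA/Mg (adjusted p = 0.144), and Tcf3, which encodes the E2A proteins, averaged 26.1 ± 1.81 FPKM with TABS and 25.5 ± 2.04 FPKM with HA/Mg (adjusted p = 0.759). Irf8, an interferon regulatory factor of macrophages and B cells, was the 1 factor of 9 tested that changed, against 18.1% of all tested genes, at 31.0 ± 0.982 FPKM with TABS and 27.4 ± 0.486 FPKM with HA/Mg (log2 change 0.17 ± 0.04, limma, adjusted p = 0.0215). Its call ended with equal library sums, after removal of length and GC trends (0.0562), and without any 1 of TABS replicates 6 and 7 and HA/Mg replicates 5, 7 and 8 (adjusted p up to 0.0644).

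Of 14 B-cell surface genes 5 were tested and 2 rose, none fell, against 5.07% higher and 18.1% changed in either direction over all tested genes. The list's median log2 difference was 0.21 against -0.036 over all tested genes. Cd72, a receptor on B cells and macrophages that restrains signalling, had 31.0, 30.3, 27.1 and 28.3 FPKM in TABS libraries, against 21.9, 21.4, 22.8 and 22.3 FPKM in HA/Mg libraries. The groups lay well apart, with a log2 change of 0.39 ± 0.05 (limma, adjusted p = 0.00851). Cd37, a tetraspanin of B cells and other leukocytes, averaged 26.6 ± 1.65 FPKM with TABS and 21.4 ± 0.727 FPKM with HA/Mg (log2 change 0.30 ± 0.05, adjusted p = 0.0116), a call that ended after removal of length and GC trends (0.0607). Cd180, a Toll-like receptor homologue, averaged 7.66 ± 1.23 FPKM with TABS and 6.47 ± 0.727 FPKM with HA/Mg and did not pass (adjusted p = 0.196). Its TABS replicates 5 and 6 were at 8.58 and 8.87 FPKM, and 7 and 8 at 6.66 and 6.55 FPKM. The defining B-cell genes Ms4a1 (CD20) and Cr2 (CD21) were listed at 0 in all 8 libraries. With TABS 5 of 12 tested macrophage genes also rose and none fell, against 5.07% higher and 18.1% changed in either direction over all tested genes. The macrophage list's summed level was 2518 to 2812 FPKM in TABS libraries and 2079 to 2466 FPKM in HA/Mg libraries. Lyz2, the largest part of that sum, averaged 1418 ± 142 FPKM with TABS and 1249 ± 141 FPKM with HA/Mg. Its groups overlapped and it did not pass (limma, adjusted p = 0.200). The part of the macrophage genes' rise in the changes of Cd79b, Cd72 and Cd37 was not tested.

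Of 27 genes of B-cell receptor signalling 24 were tested, 1 rose and none fell, against 5.07% higher and 13.1% lower over all tested genes, with a median log2 difference of -0.015. Most of these enzymes also serve the Fc receptors and integrins of macrophages. Ptpn6, which encodes the phosphatase SHP-1, was the highest, at 216 ± 8.58 FPKM with TABS and 205 ± 5.75 FPKM with HA/Mg. Pik3ap1, an adaptor for phosphoinositide 3-kinase, averaged 74.4 ± 6.03 FPKM with TABS and 71.1 ± 1.57 FPKM with HA/Mg. Neither gene passed (adjusted p of 0.266 and 0.471). Blk, the Src-family kinase most restricted to B cells, was listed at 0 in all 8 libraries. Dok3, an adaptor that dampens receptor signalling, averaged 11.1 ± 0.887 FPKM with TABS and 9.26 ± 0.620 FPKM with HA/Mg (log2 change 0.23 ± 0.07, limma, adjusted p = 0.0447). The call of Dok3 ended without any 1 library other than TABS replicate 7 (adjusted p up to 0.119) and after removal of length and GC trends (0.440).

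**Figure D3:**
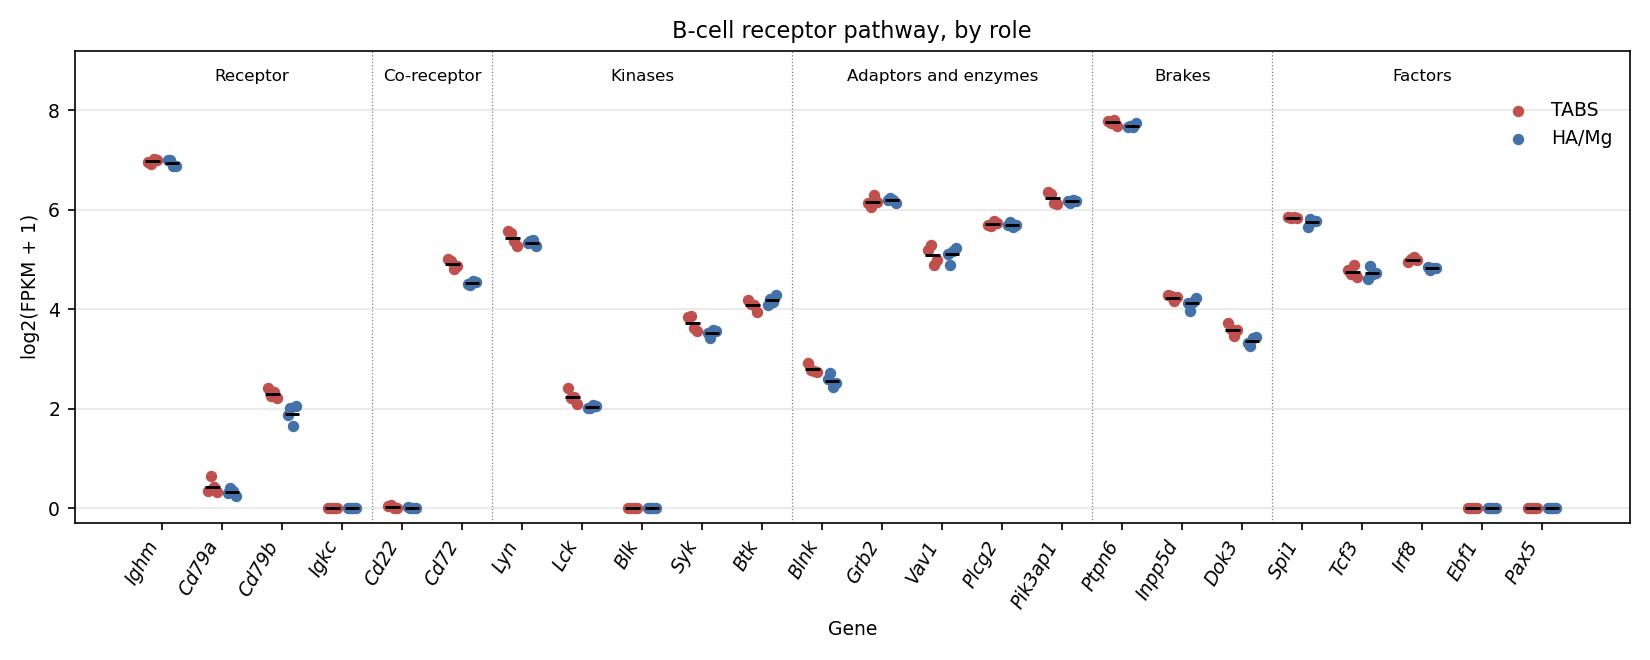
B-cell receptor pathway genes by role, as log2(FPKM + 1), for TABS (red) and HA/Mg (blue); points are libraries and bars group means. Igkc, Blk and Ebf1 are listed at 0 in all 8 libraries and Pax5 in 7, while Ighm and the shared kinases, adaptors and phosphatases have clear levels.

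Lck (chr4:129548344-129573641, minus strand) had 4.31, 3.64, 3.71 and 3.26 FPKM in TABS libraries, against 3.02, 3.04, 3.20 and 3.14 FPKM in HA/Mg libraries. The groups did not overlap, TABS replicate 5 was the highest, and TABS replicate 8 was close to the HA/Mg libraries. The mean was 3.73 ± 0.436 FPKM with TABS and 3.10 ± 0.0865 FPKM with HA/Mg (SD, n = 4 each), a log2 difference of 0.20 ± 0.07 that did not pass (limma, adjusted p = 0.0810). It passed with median-of-ratios scaling (adjusted p = 0.0400) and quantile normalization (0.0265). A value over the whole gene does not say which of the promoters shown above was used.

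Cd3e (chr9:44998740-45009627, minus strand) was listed at 0 in all 8 libraries. Among T-cell identity genes the highest was Cd5, a surface receptor of T cells and some B cells, which averaged 0.729 ± 0.124 FPKM with TABS and 0.610 ± 0.0740 FPKM with HA/Mg, under the filter. Of 14 genes of T-cell receptor signalling, Zap70, Grap2, Skap1 and Themis were listed at 0 in all 8 libraries. Zap70 encodes the kinase that acts just after Lck in T cells. Of the 4 tested, Lcp2 rose and none fell, against 5.07% higher and 18.1% changed in either direction over all tested genes. With so few genes tested, that count is no result about the list. Lcp2 encodes the adaptor SLP-76, which platelets and myeloid cells also use, and averaged 77.9 ± 8.28 FPKM with TABS and 65.5 ± 2.63 FPKM with HA/Mg (log2 change 0.24 ± 0.07, limma, adjusted p = 0.0474). Lcp2 was at 86.7 and 83.1 FPKM in TABS replicates 5 and 6. In TABS replicates 7 and 8 it was at 71.2 and 70.4 FPKM, close to HA/Mg replicate 7 at 69.0 FPKM. Its call ended without TABS replicate 5 or 6 or any 1 HA/Mg library (adjusted p up to 0.124), and with equal library sums or quantile normalization. Fyn, the other Src-family kinase of T cells, averaged 6.57 ± 0.190 FPKM with TABS and 6.40 ± 0.228 FPKM with HA/Mg (adjusted p = 0.667).

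Abl1 (chr2:31688376-31804227, plus strand) had 3.42, 7.21, 3.08 and 3.57 FPKM in TABS libraries, against 2.52, 2.93, 7.05 and 3.39 FPKM in HA/Mg libraries. TABS replicate 6 and HA/Mg replicate 7 were about alike and stood far above the other 6 libraries, and the groups overlapped. The mean was 4.32 ± 1.94 FPKM with TABS and 3.97 ± 2.08 FPKM with HA/Mg (SD, n = 4 each), a log2 difference of 0.12 ± 0.29 (limma, adjusted p = 0.798). Its sign was set by single libraries, at -0.11 when TABS replicate 6 was left out and -0.022 when HA/Mg replicate 5 was. With both high libraries left out, a choice made after seeing the data, the difference was 0.15 ± 0.10 and the number of changed genes among all tested was 0 (limma, 2567 at an unadjusted p under 0.05), and Cd79b was at an adjusted p of 0.106.

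Around Abl1, of 29 genes for partners of ABL kinases and for the STAT5 branch, by which viral Abl protein drives growth of precursor B cells, 24 were tested, 4 rose and 1 fell, with a median log2 difference of 0.0041. That share changed is near the 18.1% of all tested genes, so the count is no result about this list, and its changed genes are given one by one as a description. Pim1, a serine/threonine kinase gene that STAT5 induces, had 32.7, 25.8, 25.5 and 22.4 FPKM in TABS libraries, against 17.1, 18.1, 15.7 and 16.5 FPKM in HA/Mg libraries. The groups lay apart, 1.58-fold on the means, with a log2 change of 0.62 ± 0.10 (limma, adjusted p = 0.00971). In the same list Pim3, Bcl2l1 and Ccnd2 did not pass. Their log2 differences were 0.12, 0.14 and -0.11 (limma, adjusted p of 0.144, 0.773 and 0.245). Activity of STAT5 was not tested. Pim2, a kinase gene related to Pim1, averaged 15.3 ± 2.19 FPKM with TABS and 11.2 ± 0.722 FPKM with HA/Mg (log2 change 0.41 ± 0.09, adjusted p = 0.0213). Its TABS replicates 5 and 6 were at 17.0 and 17.4 FPKM, and 7 and 8 at 13.9 and 13.1 FPKM, against at most 11.9 FPKM with HA/Mg. Jak3, the kinase of cytokine receptors that hold the common gamma chain, averaged 5.03 ± 0.0770 FPKM with TABS and 3.99 ± 0.173 FPKM with HA/Mg (log2 change 0.27 ± 0.05, adjusted p = 0.0137). Dok2, an adaptor that restrains tyrosine kinase signalling, averaged 27.3 ± 1.73 FPKM with TABS and 22.4 ± 1.60 FPKM with HA/Mg (log2 change 0.27 ± 0.06, adjusted p = 0.0228).

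Jak1, a kinase of many cytokine receptors, fell to 30.7 ± 0.893 FPKM with TABS, against 35.6 ± 1.39 FPKM with HA/Mg (log2 change -0.21 ± 0.04, limma, adjusted p = 0.0170). Removal of length and GC trends ended the calls of Pim2 (0.0847), Jak3 (0.0831) and Dok2 (0.129), while the call of Pim1 held. The call of Pim2 also ended without TABS replicate 5 or HA/Mg replicate 5, 7 or 8 (adjusted p up to 0.0689), that of Dok2 without any 1 library but TABS replicate 6 and HA/Mg replicates 6 and 8 (up to 0.0746), and that of Jak1 without HA/Mg replicate 5 or 7 (up to 0.0617). Cdkn2a, a tumour suppressor locus, was listed at 0 in all 8 libraries, while Trp53, which encodes p53, averaged 38.2 ± 2.43 FPKM with TABS and 40.4 ± 2.61 FPKM with HA/Mg and did not pass (adjusted p = 0.379). Both genes are frequent targets of loss in Abelson-transformed cells. An RNA value of 0 cannot tell a lost gene from a silent one, and loss was not tested here.

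**Figure D4:**
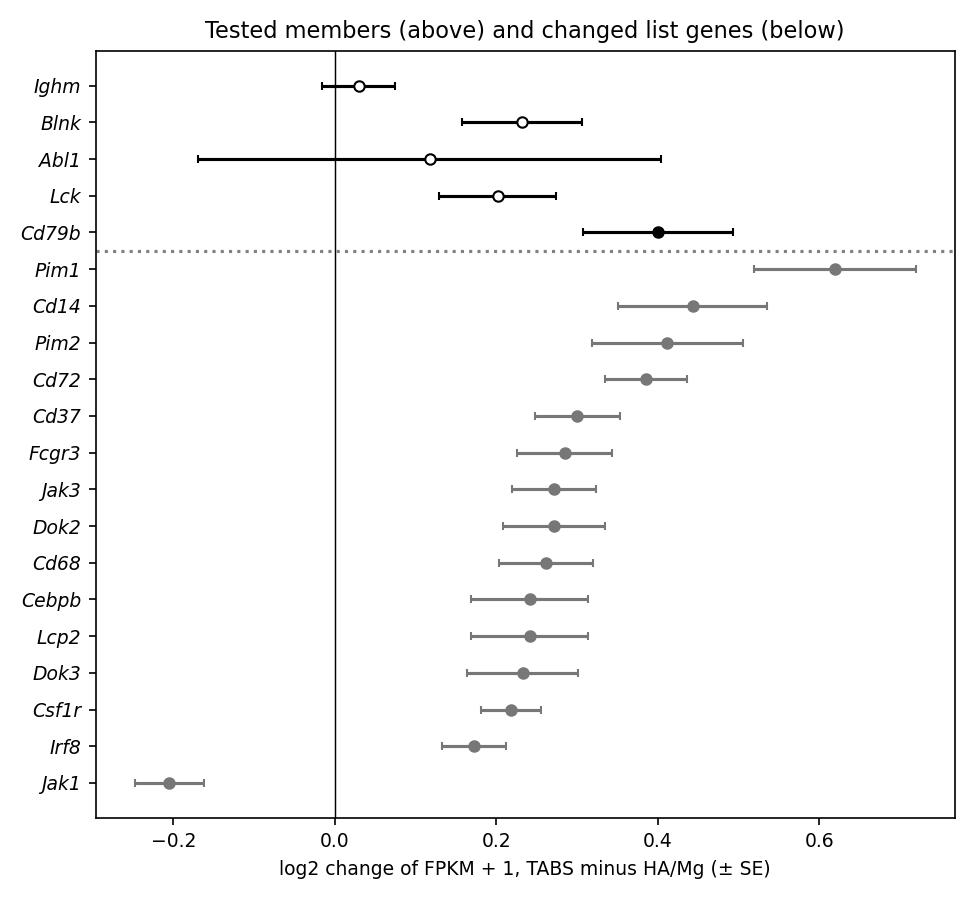
Log2 change of FPKM + 1, TABS minus HA/Mg, with the standard error of limma's fit, for the 5 tested genes of the set (black) and the genes of the surrounding lists that changed (grey); filled points passed at an adjusted p under 0.05. Cd79b is the filled point among the 5, Abl1 has the widest error, and Jak1 is the point below 0 among the changed genes.

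The macrophage genes that rose gave a scale for these changes. Cd14 averaged 307 ± 38.7 FPKM with TABS and 225 ± 18.0 FPKM with HA/Mg (log2 change 0.44 ± 0.09, limma, adjusted p = 0.0168). Its TABS replicates 5 and 6 were at 346 and 334 FPKM, and 7 and 8 at 281 and 268 FPKM, against at most 244 FPKM with HA/Mg. Cd68 averaged 539 ± 16.6 FPKM with TABS and 450 ± 33.0 FPKM with HA/Mg (log2 change 0.26 ± 0.06, adjusted p = 0.0197). Fcgr3, an activating Fc receptor, and Cebpb, a myeloid transcription factor, had log2 changes of 0.28 ± 0.06 and 0.24 ± 0.07 (adjusted p of 0.0167 and 0.0479). The call of Cebpb ended without any 1 library other than TABS replicate 7 and HA/Mg replicate 8 (adjusted p up to 0.127), that of Cd68 without HA/Mg replicate 5, 7 or 8 (up to 0.0660), and that of Cd14 without HA/Mg replicate 5 (0.0581). Those of Cd14, Fcgr3 and Cebpb ended after removal of length and GC trends (adjusted p of 0.0523 to 0.413). Whether Cd79b changed more or less than these genes was not tested.

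The patterns over the 8 libraries most like those of the tested genes were described by Pearson's r of log2(FPKM + 1), a measure that shares libraries and scaling with the comparison itself. For Cd79b they were Eno1b (0.971), Ehmt2 and Atp6v0c-ps2 (0.963 each). Blnk was most like Agpat1 (0.982), Wdr83os (0.973) and Rasa4 (0.970), and Lck was most like Pxn (0.971), Pigo and Il4i1 (0.967 each). Ighm was most like Gm2a (0.965), Alkbh7 (0.960) and Fto (0.954). The high libraries of Abl1 left it most like Gm11613 (0.934), Adsl (0.932) and Prrc1 (0.900). No gene of the surrounding lists was among these 15, but the lists hold few of the 10161 tested genes, so little can be read from that.

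The promoter windows, 250 bases before each RefSeq start, were searched on both strands for CAGGAAGT and for ATGCAAAT, the octamer of immunoglobulin promoters, with letters chosen after the sequences had been read. Windows were at hand for 6 of the 8 genes, all but Ighm and Cd79b. CAGGAAGT was found in the windows of Cd79a, Blnk and Cd3e and in both windows of Lck, and was not found in those of Pax5 and Abl1, against 884 of 32851 windows (2.69%) over all genes. ATGCAAAT was found in the window of Blnk and in 1 of 2 windows of Abl1, against 526 of 32851 (1.60%). Genes with CAGGAAGT included both Blnk and Lck, which had signal, and Cd3e, which was listed at 0. Because the letters were chosen from these same windows, the shares over all genes are no test of these matches, and enrichment was not tested. A match of letters is a description and says nothing of binding.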

How the data were processed

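RNA of 8 RAW264.7 libraries, 4 with TABS and 4 with HA/Mg, was sequenced. Per the labels' protocols, TRIzol was used for total RNA and the NEBNext Ultra kit for libraries, read on a NovaSeq as 150-base pairs. The submitters' processing notes name fastp, STAR, DESeq2 and GRCm38, without versions or roles. The sources used here do not give the annotation, any use of strand or the tool behind the FPKM. The authors deposited FPKM per gene, which are not counts. FPKM divides by length and by a library total, so a rise in abundant transcripts lowers all other values.

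Groups came from the sample titles. Of 55335 identifiers 55154 matched GENCODE M21. Only 32.1% to 38.5% of low values were whole fragments within 0.05 fragment, so depths are estimates, cover counting error only, and no count test was run. Exons of the 8 genes overlapped only genes at a mean of 0.0145 FPKM or less.

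Limma 3.58.1 in R 4.3.3 was fitted to log2(FPKM + 1), pseudocount 1, with a mean-variance trend, two-sided, without a replicate block, and was tested on simulated data. Log2 changes understate low genes. Nothing says that replicates were separate cultures. The p-values set a group difference against the spread between libraries within groups, and that spread may be only technical. The 8 genes and the surrounding lists were chosen with earlier results of these data known. Named genes were the 8, the 3 highest members of each list, up to 4 changed members with the largest change, defining genes at 0, and the 3 genes most like each tested gene, and a few of these are not reported here. Other genes named for their role in a list, or drawn in the pathway plot, were chosen after their values were seen. Alternatives were pseudocounts of 0.1 and 0.5, filters of 0.1 FPKM and none, 3 scalings, no trend, robust moderation, array weights, a replicate block, removal of length and GC trends (splines, 4 degrees of freedom), protein-coding genes only, and each library left out.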

Additional observations from a re-analysis of the deposited data

Results flagged for a closer look

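Among 100 groups of 4 libraries, 12 had a library far from the other 3, and chance alone flags about 1 in 20 groups. In 7 of the 12 only 1 library was above 0, which fixes the flag by construction, so that rate does not apply to them. Abl1 was at 7.21 FPKM in TABS replicate 6, against 3.08 to 3.57 FPKM in the other TABS libraries. Pax5 was at 0.00533 FPKM in TABS replicate 8 and listed at 0 in the others.

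Irf8 was at 26.7 FPKM in HA/Mg replicate 6, against 27.6 to 27.7 FPKM in the other HA/Mg libraries. Cd5 was at 0.499 FPKM in the same library, against 0.637 to 0.656 FPKM. Fyn was at 6.29 FPKM in TABS replicate 5, against 6.63 to 6.69 FPKM in the other TABS libraries, and Trp53 was at 34.6 FPKM in TABS replicate 7, against 39.1 to 39.8 FPKM.

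In the other 6 groups a single library was above 0. Iglc2, a lambda constant gene, was at 0.0735 FPKM in TABS replicate 5 and 0.0703 FPKM in HA/Mg replicate 5. Vpreb3 was at 0.0520 FPKM in TABS replicate 7 and 0.0517 FPKM in HA/Mg replicate 5. Tbx21 was at 0.0205 FPKM in TABS replicate 6, and Eomes at 0.0110 FPKM in HA/Mg replicate 7.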

How the results depend on the processing

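Of the 1842 genes and 1 member of the set that changed with limma, no filter on low values left 808 and 0, array weights 3532 and 2, and removal of length and GC trends 849 and 1 (Blnk in place of Cd79b). Median-of-ratios scaling and quantile normalization each called 3 of the 8 genes. Leaving out 1 library gave 429 to 3320 genes over all and 0 to 2 of the 8, and leaving out both libraries with high Abl1, chosen after seeing the data, gave 0 and 0 (2567 genes at an unadjusted p under 0.05). Deviations of same-numbered replicates had correlations of 0.01, -0.28, -0.16 and 0.13. So few values cannot settle whether equal numbers mark a shared culture or day. With the replicate block 0 genes and 0 of the 8 were called (limma, lowest adjusted p 0.0589, 2987 genes at an unadjusted p under 0.05, Cd79b at 0.0796). The call of Cd79b held in 15 of 23 settings and its log2 change lay between 0.28 and 0.51. The log2 change of Ighm was -0.021 with equal sums, -0.056 with quantile normalization and -0.046 without length and GC trends, and that of Abl1 ran from -0.11 (TABS replicate 6 left out; -0.022 with HA/Mg replicate 5 left out) to 0.38 over the fits that left out 1 library. Cd79a entered a test with no filter (adjusted p = 0.550) and with the filter of 0.1 FPKM (0.410). Beyond the filter and the lengths and GC, whose construction differs, the cause of these shifts was not tested. At the estimated depth the values of Cd79a rest on 6.51 to 16.2 fragments, and the effect of depth on them was not tested.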

Other observations

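Abl1 was 1 of 70 among 10161 tested genes (0.689%) whose libraries fell into a high and a low set at least 0.8 apart on the log2 scale, with at least 2 libraries in each set and libraries of both groups in both. The genes were counted, and those below named, after their values were seen. Bcl2l1, an anti-apoptotic target of STAT5, was at 53.8 FPKM in TABS replicate 8 and 47.4 FPKM in HA/Mg replicate 7, against 21.5 to 25.9 FPKM in the other 6 libraries. Cbl, a ubiquitin ligase for tyrosine kinases, was at 3.20 FPKM in TABS replicate 6 and 3.25 FPKM in HA/Mg replicate 8, against 6.53 to 9.97 FPKM in the others. The libraries that stood apart were partly shared, with HA/Mg replicate 7 high for both Abl1 and Bcl2l1, and TABS replicate 6 high for Abl1 and low for Cbl. The pattern held for 20 of 1513 genes with 1 annotated transcript (1.32%) and for 50 of 8648 genes with 2 or more (0.578%). Gaps were taken on log2 FPKM without the pseudocount of 1, so very low values gave very wide gaps. The genes with 1 transcript included small RNA genes such as Rn7sk, and Gcat and Guca1a with gaps of 30.3 and 32.9. Among those with 2 or more, Kctd12 had a gap of 30.6. The classes differ in make-up, so their shares cannot be compared. The part of transcript number in the pattern of Abl1 was not tested.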
